A study of Mus musculus with 2 samples.

Results

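Transitional macrophages of the wild-type mouse small intestine are described here, taken as cells that hold transcripts of Ccr2 and of the complement genes C1qa, C1qb and C1qc together while Plac8 is not detected. A cell was a member when it had at least 1 Ccr2 unique molecular identifier (UMI, the tag that counts 1 captured transcript), no Plac8 UMI, and at least 0.5% of its UMIs from the 3 C1q genes. The members were thus selected on the measured counts of these 5 genes. The wild-type library had 3016 cells left after those under 200 genes, or over 10% UMIs of mitochondrially encoded genes, were removed, and 658 of them were members. That is 21.8% of these 3016 cells (95% Clopper-Pearson interval 20.4% to 23.3%, counting error only). The series holds 5828 deposited cells of both genotypes. "Transitional" is a working name for this gate: the cells were measured at a single moment, and no order in time was recorded.

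Ccr2 is the receptor for the chemokine Ccl2, and monocytes need it to enter the circulation and then the tissue. In the gut wall such monocytes are replaced continuously and mature through intermediate stages, during which monocyte genes are lost and genes for antigen presentation, debris uptake and complement are gained. C1q, built from the products of C1qa, C1qb and C1qc, starts the classical complement cascade and tags apoptotic cells. Plac8 is a small cysteine-rich protein that is abundant in monocytes.

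Per the labels, macrophages were sorted as live CD45+ CD11b+ MHCII+ CD64+ cells that lacked CD3, TCRb, B220, SiglecF, Ly6C and Ly6G, after removal of mucus and epithelium, and 3 to 4 intestines were combined. The WT group was male C57BL/6J mice from Janvier, and the CCR2-/- group was JAX strain #:004999 bred in-house. There was 1 library per genotype, prepared with the single cell 3′ v2 chemistry, and the WT cells were run on 2 lanes. Because Ly6C was in the exclusion mix, cells with surface Ly6C, which include freshly recruited monocytes, were left out of every gate. With 1 wild-type library of pooled animals there was no biological replicate and no test. All intervals cover counting error only, and the lanes serve as a technical yardstick, not as replicates.

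The wild-type library held 20766579 UMIs in 3054 cells with a median of 6066 UMIs, and the CCR2-/- library held 7506405 UMIs in 2774 cells with a median of 2345.5. The 2 wild-type lanes shared 5 barcode sequences, and 2 members carried such a sequence. Lane 1 shared 6 with the CCR2-/- library and lane 2 shared 0.

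The members were compared with 2 other wild-type gates. The first, Ccr2+ Plac8+ cells, had at least 2 Ccr2 UMIs and at least 1 Plac8 UMI and numbered 476. The second, Ccr2-negative C1q+ cells, passed the same C1q limit as the members, had no Ccr2 UMI and numbered 1577. Plac8 was not limited in this gate, and 273 of its cells held it. The remaining 305 wild-type cells fell in none of the 3 gates. The median depths of the 3 gates were 8967 UMIs in Ccr2+ Plac8+ cells, 7446 in transitional cells and 5380 in Ccr2-negative C1q+ cells, and a deeper cell is more likely to show Ccr2. Among the 2639 cells that passed the C1q limit, members made up 19.5% of the shallowest of 4 depth classes and 32.9% of the deepest. The same number of cells was therefore drawn from each gate within every lane and depth class, 418 per gate, with medians of 8580, 8538 and 8512 UMIs. Of the 418 Ccr2-negative C1q+ cells drawn, 95 held Plac8. UMIs were summed over the 418 cells and scaled to a total of 1000000 (CPM). Where 3 CPM levels follow each other below, they stand in the order Ccr2+ Plac8+, transitional, Ccr2-negative C1q+ cells.

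The selecting genes are given as a description only. Ccr2 (chr9:124101950-124113557, GRCm38) stood at 853, 555 and 0 CPM. Among members, 220 had exactly 1 Ccr2 UMI, 160 had 2 or 3 and 278 had 4 or more. C1qa, C1qb and C1qc lie side by side on chromosome 4 (chr4:136880129-136898803 in all, minus strand). C1qa stood at 3416, 5130.0 and 6638 CPM, C1qb at 3435, 4630.4 and 5468 CPM and C1qc at 2335, 3440.4 and 4435 CPM. The C1q limit cut through a continuous range: 66 members had a share of 0.5% to 0.6%, and 72 cells that met the Ccr2 and Plac8 conditions lay just outside at 0.4% to 0.5%. Another 176 cells met the Ccr2 and C1q conditions of the members but had exactly 1 Plac8 UMI. The gates overlapped in kind, since 351 of the 476 Ccr2+ Plac8+ cells also passed the C1q limit. A further limit was free RNA. In 33 wild-type cells below the C1q limit with at least 2 genes of a lymphoid marker list, 8 Ccr2 UMIs were counted, or 28.7 CPM. Whether these UMIs were free RNA or transcripts of the lymphoid cells themselves was not tested. How many members with 1 Ccr2 UMI owe it to free RNA was not tested either. The same gate in the CCR2-/- library held 16 of 2612 cells (0.613%, 0.351% to 0.993%), and 12 of those had 1 Ccr2 UMI.

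The members carried macrophage transcripts. All 8 macrophage markers on the list stood at 20 CPM or more in the members. Among them were Csf1r, the receptor for colony stimulating factor 1 (784 CPM), Adgre1, which encodes F4/80 (411 CPM) and Fcgr1, which encodes the sorting marker CD64 (216 CPM). Monocyte markers, 10 genes without Ccr2 and Plac8, summed to 401, 282 and 218 CPM. With 4 of them measured at 20 CPM or more, 3 were higher in the members than in Ccr2-negative C1q+ cells and 1 was lower. Ly6c2, a defining transcript of blood monocytes that encodes the excluded surface protein Ly6C, was low, at 10.2, 1.13 and 0.848 CPM. The sort excluded Ly6C+ cells, and the first comparison gate is called by its rule. Several marker lists of other cells were low in the members. T cell or ILC markers summed to 6.48 CPM with Cd3e at 0 and B cell markers to 33.3 CPM with Pax5 at 0. Mast cell markers summed to 0, and neutrophil markers to 35.4, 34.9 and 34.5 CPM in the 3 gates. The neutrophil sum came nearly all from Csf3r (34.6, 33.5 and 34.2 CPM), with S100a8, S100a9 and Ly6g at 0. Other lists had larger sums in the members. Epithelial markers summed to 184, 125 and 259 CPM and plasma cell markers to 255, 79.5 and 271 CPM. Endothelial markers summed to 19.5, 38.9 and 66.7 CPM. Dendritic cell markers summed to 266, 152 and 111 CPM over 12 genes. Of these, Clec10a stood at 84.7, 48.2 and 22.1 CPM and Cd209a at 71.7, 39.2 and 21.2 CPM. Flt3 stood at 4.53, 1.97 and 0 CPM and Zbtb46 at 0.850, 0.564 and 0.848 CPM. Of the 3 dendritic genes above the level filter, 2 were higher in the members than in Ccr2-negative C1q+ cells and 1 was lower. The part of dendritic cells or other cell types in the differences between gates was not tested.

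The genes that separated the outer gates showed the members in the middle. Of 4885 genes with a mean of at least 20 CPM over the gates, not counting the 5 selecting genes, 150 (3.07%) were at least 2-fold higher in Ccr2-negative C1q+ cells than in Ccr2+ Plac8+ cells, called macrophage-side genes here. Another 62 (1.27%) were at least 2-fold lower, called Plac8-side genes. On the log2 scale, with Ccr2+ Plac8+ cells at 0% and Ccr2-negative C1q+ cells at 100%, the median position of the members over the 212 genes was 48.2% (interquartile range 40.1% to 57.9%). The members lay between the outer gates for 210 of the 212 genes, and for 2659 of all 4885 genes. The 212 genes were chosen for a gap of at least 2-fold between the outer gates in the same counts. A level between the ends is more likely across a wide gap, so these counts are not directly comparable. When genes were chosen in lane 1 and the position was read in lane 2, 190 of 214 genes lay between and the median was 48.1%. The Plac8-side genes stood nearer to the Ccr2+ Plac8+ level, with a median position of 41.5%, than the macrophage-side genes, with 50.3%. These percentages depend on the lower end of the scale. With the 125 Ccr2+ Plac8+ cells that were below the C1q limit as the lower end, and 125 cells drawn from each gate, the position was 68.1%. Without the 43 wild-type cells of highest doublet score, 13 of them members, it was 50.5%.

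**Figure D1:**
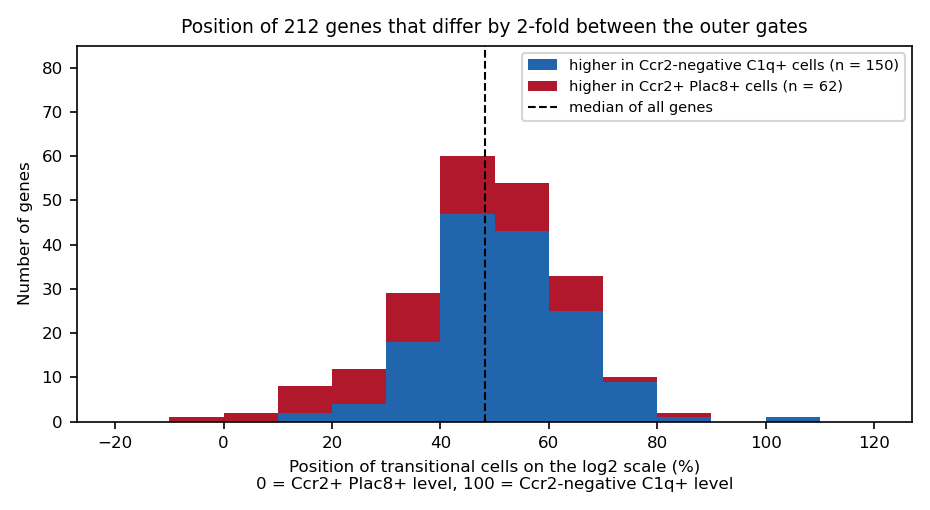
Histogram of the position of transitional cells for 212 genes, in steps of 10 percentage points on the x axis (0% is the level of Ccr2+ Plac8+ cells, 100% that of Ccr2-negative C1q+ cells, log2 scale), with the number of genes on the y axis. The counts of 150 macrophage-side and 62 Plac8-side genes are stacked, most genes lie near the median of 48.2%, and the lowest positions belong mainly to Plac8-side genes.

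Individual cells were scored as well. For each lane 2 cell, UMIs of 157 macrophage-side genes were divided by UMIs of 59 Plac8-side genes, both chosen in lane 1 alone, and the log2 of that ratio was the score. With 118 cells per gate, the median score was 0.729 in Ccr2+ Plac8+ cells, 2.33 in transitional cells and 4.11 in Ccr2-negative C1q+ cells. The 10th to 90th percentile ran from 0.631 to 3.83 in the members, from -1.17 to 3.00 in Ccr2+ Plac8+ cells and from 2.91 to 5.54 in Ccr2-negative C1q+ cells. The members overlapped both neighbours and formed a single broad range on the plot, with 94 of 118 (79.7%, 71.3% to 86.5%) between the medians of the outer gates, 15 below and 9 above. Of the outer gates themselves, 58 of 118 Ccr2+ Plac8+ cells (49.2%) and 59 of 118 Ccr2-negative C1q+ cells lay in the same range. Their own medians are the limits of this range, so these shares could not be much above 50%. They are therefore no yardstick for the share of the members.

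**Figure D2:**
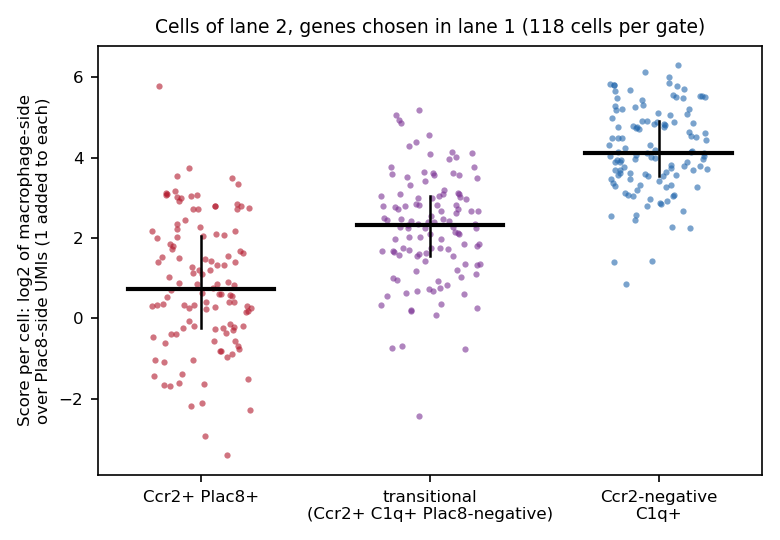
Score per cell in lane 2 on the y axis (log2 of macrophage-side over Plac8-side UMIs, 1 added to each) for 118 cells in each of the 3 gates on the x axis; each point is a cell, the thick line the median and the thin line the interquartile range. The medians step from 0.729 to 2.33 to 4.11 and the 3 clouds overlap.

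Cytoskeletal and calcium-binding genes of monocytes set the members apart from Ccr2-negative C1q+ cells. Between these gates, 27 of the 4885 genes (0.553%) were at least 2-fold higher in the members and 41 (0.839%) were at least 2-fold lower. On the list of S100, annexin, galectin and cytoskeletal genes, 10 of 18 measured genes were at least 2-fold higher and none was 2-fold lower, and the median log2 ratio was 1.10, beside -0.04 for all genes tested. Vim, which encodes the intermediate filament vimentin, stood at 568, 522 and 249 CPM, so that the members were close to Ccr2+ Plac8+ cells. Lane values of Vim were 507 and 561 CPM in the members and 234 and 286 CPM in Ccr2-negative C1q+ cells, with no overlap. Anxa2, the phospholipid-binding annexin A2, stood at 74.2, 50.7 and 11.03 CPM, and Anxa1, annexin A1, at 31.7, 26.5 and 4.24 CPM. Ahnak, a giant scaffold protein, and Lgals1, the lectin galectin-1, followed the same order at 115, 100.04 and 41.6 CPM and 238, 196 and 87.1 CPM. Against Ccr2+ Plac8+ cells the same list had a median of -0.28, beside 0.02 for all genes. At least 2-fold lower were 4 of its 18 genes, beside 18 of all 4885 genes (0.368%). The 4 list genes included S100a6, a calcium-binding S100 protein, at 135, 28.7 and 14.4 CPM, and Lsp1, a leukocyte actin-binding protein, at 139, 49.9 and 6.504 CPM. The list therefore split: Vim, Anxa1 and Anxa2 were near the Ccr2+ Plac8+ level in the members, while S100a6, Lsp1 and Crip1, a LIM-domain protein (901, 443 and 190.0 CPM), were at least 2-fold below it.

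Among genes past 2-fold in both lanes, the greatest excess over Ccr2-negative C1q+ cells belonged to Clec12a (chr6:129342691-129365303, GRCm38), an inhibitory C-type lectin receptor of myeloid cells. Its level was 87.1 and 124 CPM in lanes 1 and 2 of Ccr2+ Plac8+ cells, 56.2 and 51.0 CPM in transitional cells and 6.02 and 5.74 CPM in Ccr2-negative C1q+ cells. The lanes of the 3 gates did not overlap, and the log2 ratio of members to Ccr2-negative C1q+ cells was 3.00 (2.55 to 3.93). After each cell was thinned to 2000 UMIs, Clec12a was detected in 16.5%, 10.7% and 0.485% of cells, beside 0 of 33 lymphoid cells; before thinning the shares were 39.7%, 25.1% and 5.1%. The chemokine genes Ccl6 and Ccl9 were also higher than in Ccr2-negative C1q+ cells, with Ccl6 at 649, 487 and 169 CPM and Ccl9 at 148, 109 and 41.3 CPM. Tppp3, a tubulin-binding protein, was nearly level between the first 2 gates at 125, 117 and 41.0 CPM. Alox5ap, which activates 5-lipoxygenase for leukotriene synthesis, stood at 123, 58.0 and 21.5 CPM, S100a11 at 225, 118 and 45.0 CPM, the signal-regulatory gene Sirpb1c at 77.0, 41.4 and 14.4 CPM and the elastase Mmp12 at 46.2, 24.0 and 8.48 CPM. With all cells thinned to 2000 UMIs before gating, which left 153 cells per gate, the log2 ratios of Sirpb1c (-0.21) and Mmp12 (-0.40) changed sign.

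**Figure D3:**
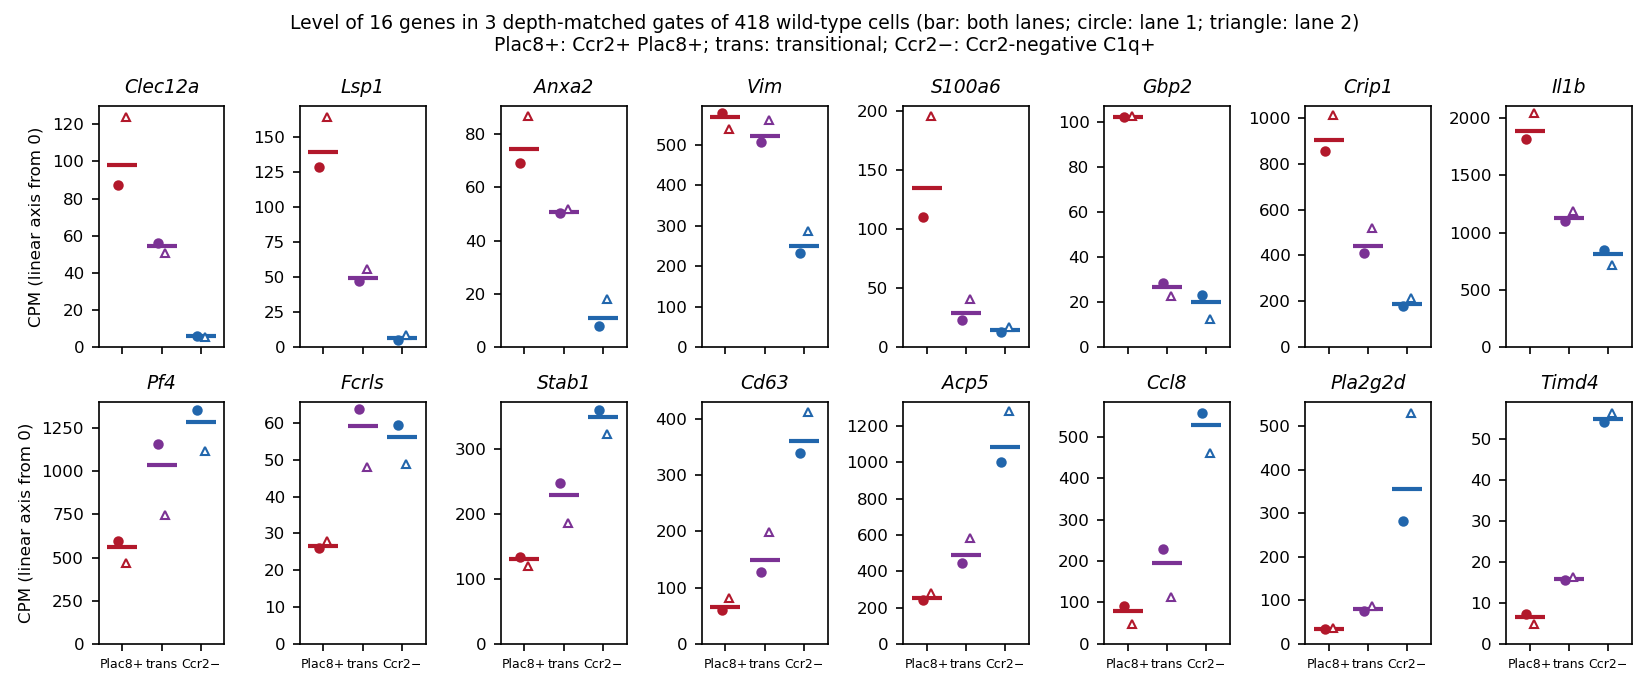
CPM on the y axis (linear, from 0) of 16 genes in the 3 depth-matched gates on the x axis, 418 cells each; bars are both lanes together, circles lane 1 and triangles lane 2. The upper row shows genes that were highest in Ccr2+ Plac8+ cells, such as Clec12a (98.0 to 54.7 to 5.94 CPM), and the lower row genes that were higher in C1q+ cells, such as Timd4 (6.51 to 15.8 to 54.9 CPM).

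Other genes were closer to the Ccr2-negative level. Between members and Ccr2+ Plac8+ cells, 18 of the 4885 genes (0.368%) were at least 2-fold lower in the members and 33 (0.676%) at least 2-fold higher. S100a6 led the lower ones with a log2 ratio of -2.19 (-2.56 to -1.92), with lane values of 109.97 and 195 CPM in Ccr2+ Plac8+ cells and 23.5 and 41.3 CPM in members. Gbp2, an interferon-induced GTPase, stood at 103, 27.1 and 20.1 CPM, a position of 82.0%. Napsa, the aspartic protease napsin A, stood at 57.5, 14.7 and 6.504 CPM, with lane values in the members of 9.57 and 26.9 CPM. Ifi205, an interferon-inducible gene, stood at 35.7, 14.7 and 23.5 CPM. The interferon list as a whole had a median log2 ratio of -0.07 over 15 genes. The inflammatory cytokine gene Il1b, which encodes interleukin-1 beta, stood at 1880.5, 1126 and 809 CPM, and Klf4, a monocyte transcription factor, at 141, 86.5 and 69.3 CPM. Among transcripts below the level filter, Fn1, fibronectin, stood at 17.8, 1.69 and 0.283 CPM, S100a4 at 19.3, 3.38 and 0.283 CPM and the antiviral membrane gene Ifitm6 at 42.8, 5.35 and 3.11 CPM, all with few UMIs in the members.

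Genes of monocyte entry and adhesion showed smaller steps. Over 15 measured genes the median log2 ratio of members was -0.31 against Ccr2+ Plac8+ cells and 0.34 against Ccr2-negative C1q+ cells. For all genes these medians were 0.02 and -0.04. Of the 15, 12 lay between, beside 2659 of all 4885 genes (54.4%). Itgb7 and Itga4, the subunits of the gut-homing integrin, stood at 43.6, 26.5 and 11.3 CPM and 147, 127 and 102 CPM. Cd44, a hyaluronan receptor, stood at 335, 317 and 207 CPM. Ms4a4c, a membrane-spanning protein of monocytes, stood at 163, 84.5 and 52.3 CPM, and Ly6a, which encodes Sca-1, at 127, 61.4 and 38.5 CPM.

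Genes of mature gut macrophages were higher in the members than in Ccr2+ Plac8+ cells throughout their list. All 18 measured genes were above, beside 2610 of all 4885 genes, by a median log2 ratio of 0.57 beside 0.02 for all genes. Only 1 of the 18 passed 2-fold, beside 33 of all 4885 genes (0.676%). Against Ccr2-negative C1q+ cells the median was -0.36. Csf1r stood at 514, 784 and 1153 CPM and Cx3cr1, the fractalkine receptor, at 435, 602 and 737 CPM. Apoe, the lipid carrier apolipoprotein E, stood at 12758, 19795 and 29169 CPM. Cd63, a lysosomal tetraspanin, and Acp5, a lysosomal acid phosphatase, had wide ranges of 66.0, 149 and 362 CPM and 254, 488 and 1084 CPM. Cd63 was detected in 10.7%, 17.8% and 41.5% of cells at 2000 UMIs, and in 1 of 33 lymphoid cells; the unthinned shares were 22.9%, 41.6% and 70.9%. Adgre1, at 271, 411 and 407 CPM and Mrc1, the mannose receptor, at 218, 334 and 352 CPM, were close to the Ccr2-negative level in the members. Trem2, a lipid receptor, was lowest in Ccr2-negative C1q+ cells, at 29.7, 31.8 and 13.9 CPM.

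Genes associated with long-lived gut macrophages were intermediate in the members as a list and differed from gene to gene. Of 8 measured genes, 4 were at least 2-fold higher in members than in Ccr2+ Plac8+ cells, beside 33 of all 4885 genes (0.676%). Another count, of genes at least 2-fold lower than in Ccr2-negative C1q+ cells, was 2 of 8, beside 41 of 4885 (0.839%). The list medians were 0.97 and -0.66, beside 0.02 and -0.04 for all genes. Timd4, the phosphatidylserine receptor Tim-4 (chr11:46810800-46844332, GRCm38), stood at 7.22 and 4.81 CPM in the lanes of Ccr2+ Plac8+ cells, 15.5 and 16.3 CPM in members and 54.2 and 56.5 CPM in Ccr2-negative C1q+ cells. The lanes did not overlap between gates, and the members were nearer to Ccr2+ Plac8+ cells in absolute level. Cd4, which long-lived gut macrophages also carry, stood at 23.2, 51.8 and 142 CPM. Stab1, the scavenger receptor stabilin-1, stood at 130.0, 229.7 and 349 CPM, and Cd163, the haemoglobin scavenger receptor, at 14.2, 21.4 and 36.5 CPM. Fcrls, an Fc receptor-like scavenger gene, was at the Ccr2-negative level, at 26.6, 59.2 and 56.3 CPM. Lyve1, Folr2 and Cbr2 were below the level filter, and Vsig4 had no UMI in the members.

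Secreted products of C1q+ macrophages stood at different distances from both neighbours. Ccl8, a chemokine, stood at 79.6, 195 and 529.6 CPM, and its lane values in the members, 229.6 and 113 CPM, lay above those of Ccr2+ Plac8+ cells, 92.3 and 49.1 CPM. Ccl24, an eosinophil attractant, stood at 27.5, 66.2 and 102 CPM, and Pf4, the chemokine platelet factor 4, at 559, 1038 and 1286 CPM. With thinning before gating the log2 ratio of Ccl24 against Ccr2+ Plac8+ cells was -0.95. Adamdec1, a secreted metalloprotease of gut macrophages, stood at 64.6, 198 and 508 CPM, and Igf1, insulin-like growth factor 1, at 10.5, 24.8 and 41.3 CPM. The largest log2 ratio over Ccr2+ Plac8+ cells among genes that passed 2-fold in both lanes belonged to H2-M2, a non-classical MHC class I gene, at 2.83, 18.6 and 66.7 CPM. Pla2g2d, a secreted phospholipase, Gpx3, the extracellular glutathione peroxidase, and Wnt4, a Wnt ligand, were low in the members relative to Ccr2-negative C1q+ cells, at 35.4, 79.7 and 355 CPM, 21.2, 34.1 and 125 CPM and 22.9, 46.2 and 156 CPM.

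**Figure D4:**
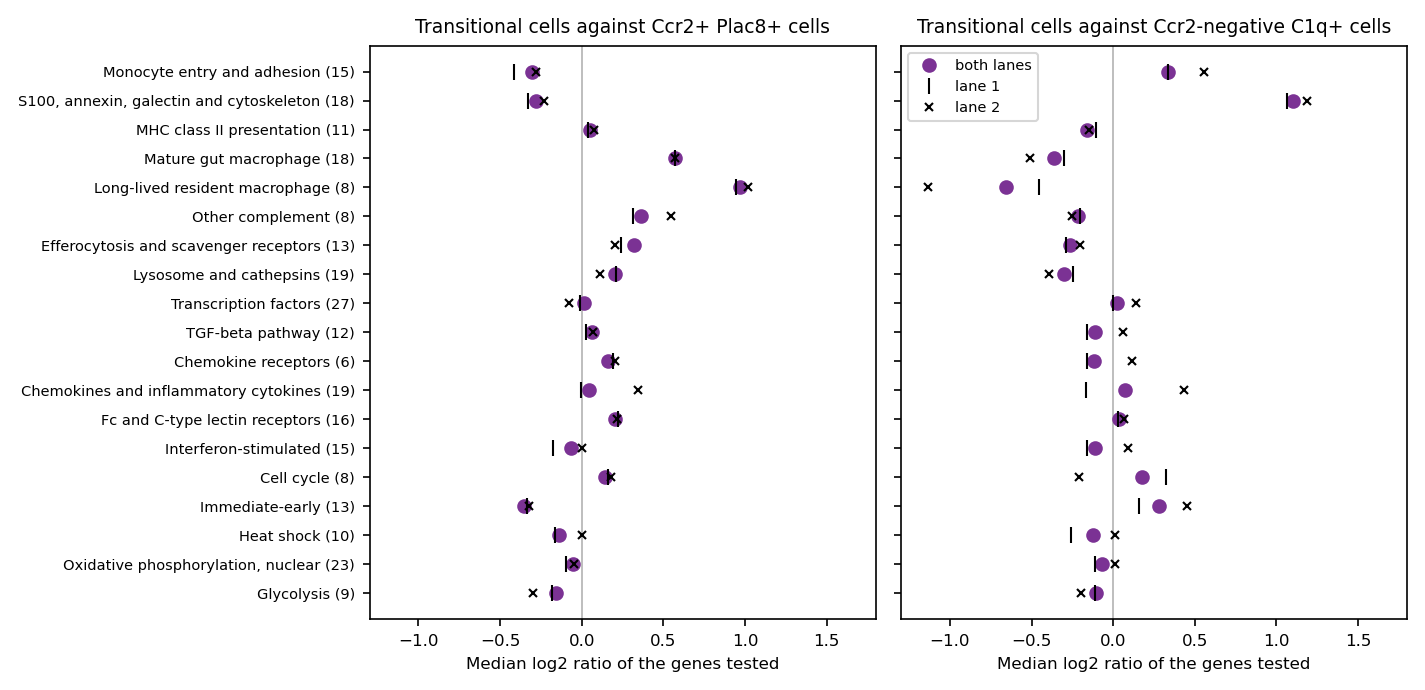
Median log2 ratio on the x axis of transitional cells against Ccr2+ Plac8+ cells (left) and against Ccr2-negative C1q+ cells (right) for 19 gene lists on the y axis, with the number of genes tested in brackets; circles are both lanes, bars lane 1 and crosses lane 2. The list of S100, annexin, galectin and cytoskeletal genes lies furthest to the right against Ccr2-negative C1q+ cells (1.10) and the long-lived resident list furthest to the right against Ccr2+ Plac8+ cells (0.97).

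The order in which genes stood between the gates differed from gene to gene. Of the 150 macrophage-side genes, 36 had a position of at least 60%, and 27 of these were above 50% in each lane. They included Pf4 (74.3%), Fcrls (107%), Dab2, an endocytic adaptor (65.5%), Havcr2, which encodes Tim-3 (65.4%), and Plod1, a collagen lysyl hydroxylase (85.01%). Another 24 had a position of at most 40%, 16 of them below 50% in each lane, including Mitf, a transcription factor of lysosomal genes (12.8%), Gpx3 (26.3%), Pla2g2d (34.9%) and Il18bp, the interleukin-18 decoy receptor (37.4%). Of the 62 Plac8-side genes, 28 were at most 40%, 22 of them in each lane below 50%, with Vim (10.1%), Anxa2 (20.4%), Lgals1 (19.5%) and Clec12a (21.7%) among them. Only 10 were at least 60%, 8 of them above 50% in each lane, among them Il1b (60.8%), Klf4 (68.8%), S100a6 (69.8%) and Gbp2 (82.0%). The limits of 40% and 60% were set after the median position was known.

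Promoter windows of 4 of these genes are shown as examples. S100a11 is from the Plac8-side genes, Pf4 and Ccl8 are from the macrophage-side genes, and Timd4 is from the genes associated with long-lived macrophages. Each of the 4 windows holds a searched motif, so they do not represent the other genes of their side. The windows are the 250 bases before the RefSeq start, build GRCm38.p6, read 5′ to 3′ on the strand of the gene, and capitals mark a searched motif. Motifs were the AP-1 site TGAGTCA, the PU.1 core GAGGAAG and the MAF core TGCTGAC, on either strand.
S100a11, chr3:93520246-93520495, + strand: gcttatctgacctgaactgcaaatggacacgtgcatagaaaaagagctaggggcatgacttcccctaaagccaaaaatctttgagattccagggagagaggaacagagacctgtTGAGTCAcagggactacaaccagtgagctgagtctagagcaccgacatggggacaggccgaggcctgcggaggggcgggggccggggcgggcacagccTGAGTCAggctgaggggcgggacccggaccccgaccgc
Pf4, chr5:90772185-90772434, + strand: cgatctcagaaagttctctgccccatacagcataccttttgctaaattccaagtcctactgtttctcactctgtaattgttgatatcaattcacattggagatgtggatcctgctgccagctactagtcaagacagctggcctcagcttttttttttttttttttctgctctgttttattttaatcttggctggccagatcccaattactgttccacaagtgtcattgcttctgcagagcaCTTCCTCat
Ccl8, chr11:82114935-82115184, + strand: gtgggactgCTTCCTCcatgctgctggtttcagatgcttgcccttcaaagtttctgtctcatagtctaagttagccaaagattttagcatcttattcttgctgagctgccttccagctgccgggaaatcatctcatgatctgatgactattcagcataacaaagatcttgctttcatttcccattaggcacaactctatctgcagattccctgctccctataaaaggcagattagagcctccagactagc
Timd4, chr11:46810549-46810798, + strand: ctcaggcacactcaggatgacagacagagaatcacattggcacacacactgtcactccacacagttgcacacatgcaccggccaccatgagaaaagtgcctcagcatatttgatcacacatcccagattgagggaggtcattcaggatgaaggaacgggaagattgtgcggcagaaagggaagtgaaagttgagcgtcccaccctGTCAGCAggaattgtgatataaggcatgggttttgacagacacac
The S100a11 window holds the AP-1 letters in 2 places, the Pf4 and Ccl8 windows hold the PU.1 core on the opposite strand, and the Timd4 window holds the MAF core on the opposite strand. Among windows of 27025 genes, 5.16% held the AP-1 letters, 12.004% the PU.1 core and 4.31% the MAF core. Of 109 matched macrophage-side genes, 10 (9.17%) held the AP-1 letters, 24 (22.02%) the PU.1 core and 7 (6.42%) the MAF core. Of 45 matched Plac8-side genes the counts were 7 (15.6%), 7 (15.6%) and 0. No matches overlapped in these 4 windows. A match is a string of letters and says nothing about binding in these cells.

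Lysosomal genes were intermediate in the members. All 19 measured genes were lower in members than in Ccr2-negative C1q+ cells, beside 2784 of all 4885 genes, with a median of -0.30. Of the 19, 18 were higher than in Ccr2+ Plac8+ cells, beside 2610 of 4885, with a median of 0.20. Ctsb, cathepsin B, stood at 980.0, 1485 and 2156 CPM, and Ctsl, cathepsin L, at 162, 238 and 399 CPM. Antigen presentation was nearly level: H2-Ab1, a chain of MHC class II, stood at 12647, 13761 and 15348 CPM, and the list medians were -0.16 and 0.05. MHCII was a sorting marker, so that cells without it were not collected. Complement receptor genes were intermediate, with C5ar1 at 144, 239 and 283 CPM and C3ar1 at 217, 305 and 369 CPM, while C3 itself was highest in Ccr2+ Plac8+ cells, at 21.2, 12.4 and 3.68 CPM. The efferocytosis receptor gene Mertk stood at 19.0, 26.5 and 43.0 CPM, Axl at 135, 140.3 and 163 CPM and the scavenger receptor Msr1 at 118, 169 and 271 CPM.

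Over the list of transcription factors the median log2 ratio was 0.02 against Ccr2-negative C1q+ cells over 27 genes, beside -0.04 for all genes. Spi1, which encodes PU.1, stood at 393, 396 and 419 CPM. Maf, a regulator of mature macrophages, was close to the Ccr2-negative level, at 205, 317 and 325 CPM. Nr4a1, an immediate-early nuclear receptor, and Nfil3, a bZIP factor, were lower in each gate than in the one before, at 174, 105 and 56.0 CPM and 51.3, 25.1 and 13.9 CPM. The immediate-early list, which responds to tissue digestion as well as to signals in the tissue, had all 13 measured genes above Ccr2-negative C1q+ cells, beside 2101 of all 4885 genes (list median 0.28) and a median of -0.36 against Ccr2+ Plac8+ cells. The part of digestion in this was not tested. Ribosomal protein genes took 24.9%, 21.9% and 16.6% of UMIs, and mitochondrially encoded genes 2.48%, 2.93% and 2.90%.

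Chemokine receptor genes and genes of the TGF-beta pathway, whose ligand drives macrophage maturation in the gut, had small median log2 ratios. For 6 receptor genes the medians were -0.11 against Ccr2-negative C1q+ cells and 0.16 against Ccr2+ Plac8+ cells, and for 12 TGF-beta genes -0.11 and 0.06, beside -0.04 and 0.02 for all genes. Ccr1, a receptor for inflammatory chemokines, stood at 378, 459 and 525 CPM. Tgfbr1 and Tgfbr2, the receptor chains, stood at 109.9, 143 and 190.3 CPM and 69.4, 87.6 and 102 CPM. Fc and lectin receptors split, with Fcgr4 at 307, 452 and 671 CPM and Clec4n, which encodes dectin-2, at 139.9, 252 and 581 CPM, against Cd209a at 71.7, 39.2 and 21.2 CPM and Clec10a at 84.7, 48.2 and 22.1 CPM.

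Few genes lay far outside the outer gates. Hist1h2ap, a replication-dependent histone, was the only gene at least 2-fold above both, at 26.1, 58.3 and 28.0 CPM, with 72.1 and 25.001 CPM in the lanes of the members against 28.9 and 25.9 CPM in those of Ccr2-negative C1q+ cells, so that the excess over the latter came from lane 1. Its near-identical histone copies share sequence, so that the counted gene is uncertain. The cell cycle gene Top2a stood at 36.3, 60.6 and 39.3 CPM, Mki67 at 13.03, 25.4 and 20.4 CPM and Stmn1 at 38.8, 66.8 and 56.0 CPM. The lanes did not agree on the excess over Ccr2-negative C1q+ cells. Over 8 measured cell cycle genes the median log2 ratio was 0.33 in lane 1 and -0.21 in lane 2. Against Ccr2+ Plac8+ cells it was 0.16 and 0.18. Cells with at least 5 UMIs of 10 proliferation genes made up 5.02% of members (21 of 418, 3.14% to 7.58%), 2.63% of Ccr2+ Plac8+ cells and 3.59% of Ccr2-negative C1q+ cells, and these intervals overlapped. The 5 genes at least 2-fold below both were transcripts of epithelium or plasma cells: Fabp1 (45.9, 12.7 and 73.2 CPM), Fabp6 (95.5, 27.6 and 89.4 CPM), Rbp2 (29.5, 7.04 and 44.4 CPM), Reg3b (39.4, 7.89 and 20.6 CPM) and Jchain (244, 72.7 and 264 CPM). These values rested on few cells, since a single cell gave 50.1% of the Jchain UMIs in Ccr2+ Plac8+ cells and 47.2% in Ccr2-negative C1q+ cells. Without the 109 cells that had at least 0.2% of UMIs from such transcripts, 12 of them members, the log2 ratio of Jchain against Ccr2-negative C1q+ cells was 0.46 and the median position was 48.7%.

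The members were not uniform, and their median position differed with the number of Ccr2 UMIs. Cells with the C1q share and without Plac8 were divided into 0, 1, 2 to 3, and 4 or more Ccr2 UMIs and matched on lane and depth at 110 cells per step. The genes used were the 175 of the 212 above that were at least 2-fold apart between the ends of the steps. They had been chosen in these same cells, between gates that differ in Ccr2, and the lane and thinned values start from the same genes. The positions therefore describe the steps and do not test them. Over the 175 genes, the median position was 29.1% at 4 or more UMIs, 58.7% at 2 to 3 and 76.2% at 1. Lane 1 alone gave 30.6%, 56.2% and 76.6%, and lane 2 alone, with 25 cells per step, 19.4%, 44.3% and 78.2%. On counts thinned to 2000 UMIs, with 74 cells per step, the positions were 19.6%, 36.8% and 60.4%, lower at each step and in the same order. In the order Ccr2+ Plac8+ cells, then 4 or more, 2 to 3, 1 and 0 Ccr2 UMIs, Clec12a stood at 110.2, 87.2, 27.5, 13.9 and 11.3 CPM. Tmsb10, thymosin beta 10, stood at 1701, 976, 822, 609.9 and 327 CPM and Cd63 at 56.3, 70.0, 122, 269.7 and 359 CPM. Acp5 stood at 217, 294, 535, 648 and 977 CPM. The widest step of Clec12a lay between 4 or more and 2 to 3 Ccr2 UMIs, and that of Cd63 between 2 to 3 and 1. Timd4 stood at 10.0, 4.91, 21.2, 37.8 and 42.8 CPM and Ccl8 at 40.1, 89.7, 257, 347 and 307 CPM. At 4 or more Ccr2 UMIs both were lower than at fewer Ccr2 UMIs, while Ccl8 was above its Ccr2+ Plac8+ level. The lowest Timd4 levels rest on few UMIs, since the step of 4 or more summed to 813937 UMIs of all genes.

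**Figure D5:**
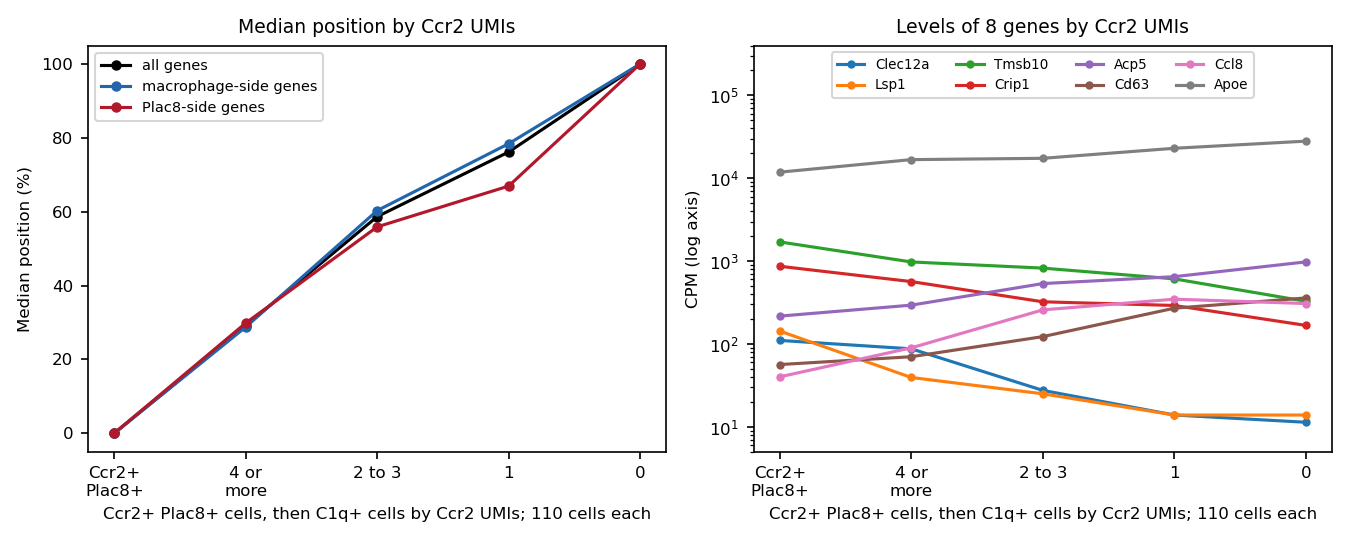
Median position over 175 genes (left, y axis in %) and CPM of 8 genes (right, log axis) in 110 depth-matched cells per step; the x axis runs from Ccr2+ Plac8+ cells through C1q+ Plac8-negative cells with 4 or more, 2 to 3, 1 and 0 Ccr2 UMIs. The position passes 29.1%, 58.7% and 76.2%, Clec12a and Lsp1 are lower and Cd63, Acp5 and Apoe higher towards 0 Ccr2 UMIs.

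The gate was nearly empty in the CCR2-/- library, where the receptor gene itself is disrupted and Ccr2 transcripts numbered 50 UMIs in all, so that a gate drawn on Ccr2 cannot count comparable cells there. Genotype, breeding source and library were the same split and cannot be told apart, and the CCR2-/- cells were shallower. The CCR2-/- library held 2188 cells with the same C1q share and no Ccr2 UMI, and all of them were set beside all 1577 Ccr2-negative C1q+ cells of wild type. Of the 62 Plac8-side genes, 29 (46.8%) were lower in the CCR2-/- cells, of the 150 macrophage-side genes 58 (38.7%), and of all 4885 genes 2249 (46.0%). The share of Plac8-side genes was thus near that over all genes, in a comparison that was not matched on depth. This share does not show the size of the differences, which went both ways. S100a11 (41.8 CPM in wild type, 11.4 CPM in CCR2-/- cells) and Anxa2 (11.3 and 5.36 CPM) were lower in the CCR2-/- cells. Alox5ap (36.9 and 64.8 CPM) and Ahnak (45.9 and 73.3 CPM) were among the 33 Plac8-side genes that were higher there. The source of these differences was not tested.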

How the data were processed

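The deposited matrices hold UMI counts per gene and cell, whole numbers that the authors did not normalise. Per the submitters' processing notes, Cell Ranger 3.0.1 and mm10 were used. How cells were called, and with which annotation, is not given in the sources used here. Rows were read by Ensembl identifier, and coordinates are from GENCODE M21 (GRCm38). Cells were filtered and gated as the report states. Doublets were kept, as the gate was written without a doublet step. Cells were matched within lane and log2 depth classes of width 0.25 with a fixed seed. Log2 ratios used a pseudocount of 1 CPM, which understates ratios of low genes. Intervals of ratios are exact conditional binomial intervals of the counts, without the pseudocount, those of shares Clopper-Pearson, at the 95% level.

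The named genes are, per comparison and direction, up to 12 with the largest log2 ratios among genes of at least 20 CPM that passed 2-fold in each lane, without mitochondrial, ribosomal protein and unnamed gene models, plus genes of the lists. Genes of the position, step and promoter paragraphs outside that rule were chosen after their values were seen. The gate and the lists were chosen with earlier results of these data known. Alternatives covered the gate limits, doublets, depth, lanes, scaling, filters and pseudocount. The log2 ratios and the position were checked on simulated counts of the gates with known folds. These counts had no variation between cells beyond counting error. The Ccr2 steps, the score per cell and the thinning were not simulated. Python 3.11.15, scanpy 1.11.5 (Scrublet) and scipy 1.17.1 were used. A few genes of the lists are not reported here.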

Additional observations from a re-analysis of the deposited data

Results flagged for a closer look

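The gate of transitional cells was applied to the CCR2-/- library, which takes no part in the comparisons between gates. It held 16 of 2612 cells (0.613%), above the 0.115% that a count of 0 would allow. That limit is set by the number of cells alone, and a few stray Ccr2 UMIs, of which the library held 50, are enough to exceed it. Of the 16 cells, 12 had 1 Ccr2 UMI, and their median depth was 3878 UMIs against 2439 in all CCR2-/- cells that passed the filter. The source of these Ccr2 UMIs was not tested.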

How the results depend on the processing

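The number of members was 438 with at least 2 Ccr2 UMIs, 368 with at least 1% C1q and 192 in lane 2 alone. Counts of genes past 2-fold moved with the filter and the number of cells. Against Ccr2-negative C1q+ cells, 27 genes were higher in the main comparison, 43 at a filter of 10 CPM, 14 at 50 CPM, 15 with a pseudocount of 10 CPM, 48 in lane 2, 51 when Ccr2+ Plac8+ cells below the C1q limit set the matching (125 cells per gate), and 238 with thinning to 2000 UMIs before gating (153 cells per gate). The 41 lower genes became 71, 22, 71, 75 and 280 at 10 CPM, at 50 CPM, in lane 2, with the low-C1q matching and with thinning, and 66 with at least 2 Ccr2 UMIs. Against Ccr2+ Plac8+ cells, the 33 higher genes became 55 at 10 CPM, 14 at 50 CPM, 9 with the pseudocount of 10, 71 in lane 2, 219 with low C1q, 338 with thinning and 17 with at least 2 Ccr2 UMIs. The 18 lower genes became 39, 8, 10, 44, 136 and 223 under the first 6 of these settings in that order. The median position of 48.2% became 50.5% without doublets, 38.7% with at least 2 Ccr2 UMIs, 52.7% with thinning, 46.2% with the pseudocount of 10, 68.1% with low-C1q cells as the lower end and 44.7% for genes past 4-fold. Ccr2 steps on thinned counts gave 60.4% at 1 UMI and 36.8% at 2 to 3.

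Signs reversed against Ccr2-negative C1q+ cells for Sirpb1c (-0.21), Mmp12 (-0.40), Jchain (1.64) and Fabp6 (0.71) with thinning, for Jchain without depth matching (0.086) and without cells with epithelial or plasma cell UMIs (0.46), and for Fabp6 against Plac8-negative cells (0.97) and with low-C1q matching (0.051). Against Ccr2+ Plac8+ cells, Ccl24 (-0.95) and Reg3b (0.55) reversed with thinning and Reg3b (1.11) with low-C1q cells. Beyond the fewer cells and the other filters themselves, the cause was not tested. Leaving out cells with epithelial or plasma cell UMIs, and the lanes of the Ccr2 steps, were chosen after seeing the data. No paired analysis was possible because each genotype had 1 library.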
